A study of Mus musculus with 8 samples.

Results

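The genes described here are the 10 zinc-dependent histone deacetylases other than *Hdac3*, taken by gene symbol from the 18990 genes of an RNA-sequencing table of early reprogramming. All 10 were found and all 10 passed the filter for testing, which 13866 genes did. They are *Hdac1*, *Hdac2* and *Hdac8* of class I, *Hdac4*, *Hdac5*, *Hdac7* and *Hdac9* of class IIa, *Hdac6* and *Hdac10* of class IIb, and *Hdac11* of class IV.

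Histone deacetylases remove acetyl groups from lysines, and on histone tails this goes with tighter chromatin and lower transcription. The class I enzymes HDAC1 and HDAC2 act inside the SIN3, NuRD, CoREST and MiDAC complexes, whereas HDAC3, left out here, is the enzyme that works with the NCOR1 corepressor. The class IIa enzymes have little activity of their own, bind MEF2 transcription factors, and leave the nucleus with 14-3-3 proteins once kinases phosphorylate them.

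The cells were primary wild-type BL6 mouse embryonic fibroblasts (MEFs), reprogrammed at passage 2. In all groups they carried the tet-STEMCCA lentivirus, which encodes Oct4, Sox2, Klf4 and c-Myc, together with an rtTA lentivirus, so that doxycycline switches the 4 factors on. All groups were grown in the same medium, which held doxycycline, the small molecule chiron, an inhibitor of the TGF-beta receptor (Alk5i), ascorbic acid and LIF. Before induction the cells received 40 nM of pooled siRNAs against *Ncor1* (*siNcor1*) or against *Oct4* (*siOct4*), and RNA was taken at day 3 or day 6 of reprogramming. Each of the 4 groups has 2 libraries, which the labels call biological replicates, so every group rests on n = 2. Libraries of a non-targeting control were not analysed here, so the knockdowns and the days are compared with each other alone. The knockdown is transient, and the cassette makes the very mRNA that the *Oct4* siRNA targets.

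The libraries held between 7735742 and 16445192 reads on genes, and the smallest was *siOct4* day 3 replicate 2. *Ncor1* mRNA was lower in both *siNcor1* libraries than in both *siOct4*-labelled libraries at day 3 (7.08 and 7.20 against 7.82 and 7.94 log2-cpm, adjusted p = 0.0139 with limma), but not at day 6 (7.26 and 7.28 against 7.33 and 7.13). *Pou5f1*, which encodes OCT4, was not clearly lower in the *siOct4*-labelled libraries at day 3 (7.53 and 7.62 against 7.63 and 7.68, adjusted p = 0.941) and was higher at day 6 (9.45 and 8.97 against 7.55 and 7.32, adjusted p = 1.1e-04). Directions below are therefore given for the *siOct4*-labelled libraries, and a difference between the knockdowns is always theirs minus *siNcor1*. All 10 fibroblast markers were detected in every group. Their summed level was 6320 to 6444 CPM (read counts scaled to library size) in *siNcor1* and 8858 to 10414 CPM in the *siOct4*-labelled libraries at day 3, and 4645 to 5015 CPM against 2563 to 2733 CPM at day 6. These sums do not stand for each marker. Between the knockdowns, 0 of 10 had an adjusted p under 0.05 (limma) at day 3, and 7 were lower at day 6. From day 3 to day 6, 6 were higher and 2 lower in *siNcor1*, and 2 higher and 5 lower in the *siOct4*-labelled libraries. Shares over all genes follow below. The 7 epithelial markers together went from 87.8 to 89.8 CPM at day 3 to 683 to 715 CPM at day 6 in *siNcor1*, and from 36.7 to 44.6 CPM to 290.0 to 327.8 CPM in the *siOct4*-labelled libraries. Of the markers of other cells, *Zfp42* (pluripotent cell) and *Emcn* (endothelium) had 3 reads or fewer in every library, and *Myod1*, *Myog*, *Ckm*, *Snap25*, *Ptprc* and *C1qa* have no row in the table used here, so they check nothing. The pluripotent markers summed to 7.61 to 7.77 CPM in *siNcor1* and 1.42 to 3.67 CPM in the *siOct4*-labelled libraries at day 3, and to 100.4 to 109.2 CPM and 43.0 to 49.7 CPM at day 6. Over all libraries the sums of the listed markers ranged from 21.5 to 124 CPM for muscle, 16.4 to 44.4 CPM for endothelium and 4.35 to 10.2 CPM for macrophages.

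To compare the deacetylases with each other, their CPM were divided by the summed length of their annotated exons in kb (CPM per kb). *Hdac2* and *Hdac1*, the paired catalytic subunits of the class I complexes, were the highest, at 23.9 ± 3.18 and 22.9 ± 2.69 CPM per kb (mean ± SD over the 8 libraries). These levels were above 87.8% and 87.3% of the tested genes. Next came *Hdac6*, a cytoplasmic enzyme that deacetylates tubulin, at 11.4 ± 1.91, and *Hdac7*, a class IIa repressor known from thymocytes and blood vessels, at 10.3 ± 2.86 CPM per kb. A middle group held *Hdac5*, a class IIa repressor that answers to calcium and stress kinases (5.19 ± 0.98), *Hdac10*, which acts on acetylated polyamines (5.11 ± 0.86), and *Hdac4*, the class IIa repressor of cartilage maturation (4.74 ± 0.42 CPM per kb). Lower still were *Hdac8*, a class I enzyme that deacetylates the cohesin ring outside the large complexes (1.83 ± 0.17), and *Hdac11*, the sole class IV enzyme, which also removes fatty acyl groups (1.39 ± 0.32). *Hdac9*, a class IIa enzyme best known from muscle, was the lowest at 0.27 ± 0.08 CPM per kb, above 2.45% of the tested genes, and rested on 30 to 73 reads a library. Down this order the ranges of neighbours over the 8 libraries overlapped, except that *Hdac1* stood above *Hdac6*, *Hdac4* above *Hdac8*, and *Hdac11* above *Hdac9* in all libraries. With the length of the longest transcript in place of all exons, *Hdac1* (38.8 CPM per kb) came before *Hdac2* (32.9), *Hdac7* (13.5) before *Hdac6* (13.2), and *Hdac4* (9.25) before *Hdac5* (8.42) and *Hdac10* (5.97), and the other ranks were unchanged.

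**Figure D1:**
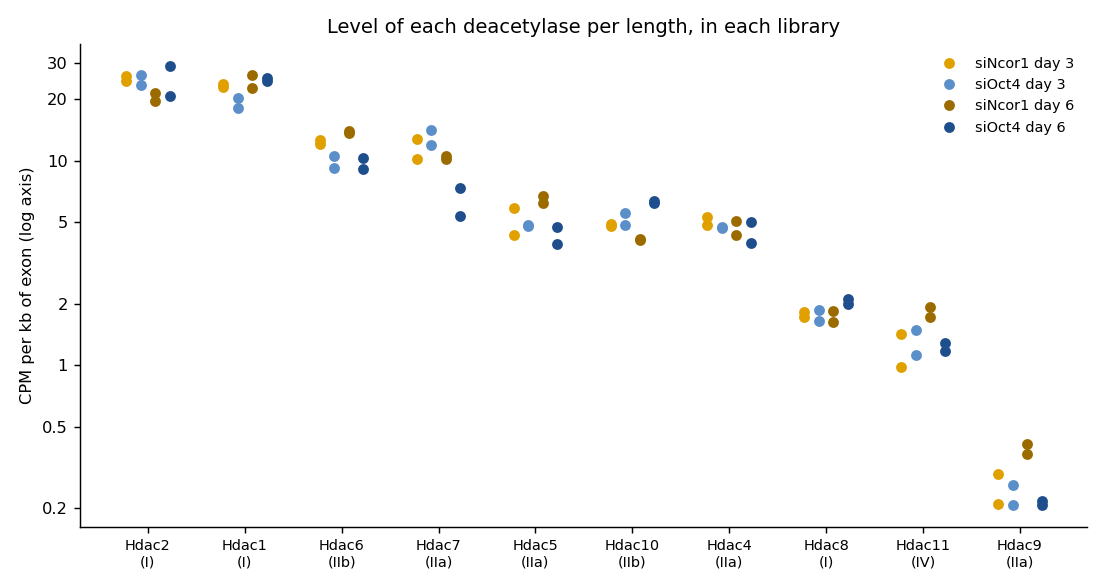
Level of the 10 deacetylases in CPM per kb of exon (log axis), in order of their mean, with 1 point a library and colours for the 4 groups (*siOct4* stands for the libraries labelled so). *Hdac2* and *Hdac1* lie near 20 CPM per kb and above, and *Hdac9* lies below 0.5 CPM per kb in every library.

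On GRCm38 the class I genes are *Hdac1* (chr4:129516104-129542713), *Hdac2* (chr10:36974544-37001889) and *Hdac8* (chrX:102284639-102505359). The class IIa genes are *Hdac4* (chr1:91928779-92195699), *Hdac5* (chr11:102194432-102230166), *Hdac7* (chr15:97792664-97844502) and *Hdac9* (chr12:34047580-34917095). The others are *Hdac6* (chrX:7930120-7947889), *Hdac10* (chr15:89123307-89128700) and *Hdac11* (chr6:91156665-91174692). Exons of *Hdac7* overlap those of *Slc48a1*, a haem transporter gene on the opposite strand that had 1230 to 3554 reads. Exons of *Hdac11* overlap the antisense models *Gm14573* and *Gm44002*, those of *Hdac4* the opposite-strand *Gm26720*, and those of *Hdac5* the microRNA gene *Mir8101*, and none of these 4 is in the table. Whether reads were counted by strand is not given in the sources used here, and without strand such reads cannot be told apart. The processed pseudogene of *Hdac1*, *Gm10093*, held 2.92% to 4.58% as many reads as *Hdac1*.

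The promoters of the 4 deacetylases that were lower in the *siOct4*-labelled libraries at day 6 (described further on) are shown, since these genes differed in the same direction. RefSeq promoters (GRCm38.p6) were matched for 8 members with 12 start sites, without *Hdac1* and *Hdac10*. In 300 bases around each start, from 250 before to 50 after, both strands were searched for the E-box CACGTG, bound by MYC and its relatives, the octamer ATGCAAAT, bound by OCT4, the CCAAT box and the MEF2 consensus. Over all 32817 promoters these were present in 7.15%, 1.74%, 37.4% and 3.19%. The windows printed below run from 250 bases before the start to 30 after, 5′ to 3′ on the minus strand, which is the coding strand of all 4 genes, and capitals mark the motifs. They are chr11:102230143-102230422 for *Hdac5*, chr15:97831466-97831745 for 1 of the 4 starts of *Hdac7*, chr12:34528860-34529139 for 1 of the 2 starts of *Hdac9*, and chrX:7947860-7948139 for *Hdac6*.
Hdac5: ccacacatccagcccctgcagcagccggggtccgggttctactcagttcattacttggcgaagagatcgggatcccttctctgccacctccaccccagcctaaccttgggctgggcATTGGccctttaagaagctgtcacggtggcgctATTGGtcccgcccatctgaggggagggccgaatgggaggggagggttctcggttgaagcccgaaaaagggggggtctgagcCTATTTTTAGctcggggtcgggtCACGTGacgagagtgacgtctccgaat
Hdac7: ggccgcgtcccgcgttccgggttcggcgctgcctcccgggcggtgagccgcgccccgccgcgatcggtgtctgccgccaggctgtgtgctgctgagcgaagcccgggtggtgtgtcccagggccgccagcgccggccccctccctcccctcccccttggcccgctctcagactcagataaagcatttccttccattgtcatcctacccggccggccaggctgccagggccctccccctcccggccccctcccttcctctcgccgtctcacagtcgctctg
Hdac9: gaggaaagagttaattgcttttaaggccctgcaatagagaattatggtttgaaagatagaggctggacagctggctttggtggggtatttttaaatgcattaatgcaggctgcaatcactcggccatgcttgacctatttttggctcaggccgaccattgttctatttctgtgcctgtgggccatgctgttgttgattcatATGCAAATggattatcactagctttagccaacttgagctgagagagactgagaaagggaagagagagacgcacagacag
Hdac6: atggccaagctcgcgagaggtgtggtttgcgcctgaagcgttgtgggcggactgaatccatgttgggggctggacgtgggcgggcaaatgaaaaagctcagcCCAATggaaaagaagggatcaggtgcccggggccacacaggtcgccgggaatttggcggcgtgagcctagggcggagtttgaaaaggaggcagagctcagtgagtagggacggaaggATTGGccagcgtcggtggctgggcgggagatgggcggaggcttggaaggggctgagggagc

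Positions count the first transcribed base as 1, with no position 0. The *Hdac5* promoter held an E-box at 4, a MEF2 consensus at −20, and CCAAT boxes on the other strand (printed as ATTGG) at −134 and −101. The *Hdac9* start shown held the octamer at −49, and its other start held none of the 4 motifs. The *Hdac6* promoter held CCAAT at −148 and, on the other strand, at −31. None of the 4 *Hdac7* starts held any of the motifs in its 300 bases. Among the other members, CCAAT boxes were found at *Hdac4*, *Hdac8* and *Hdac11* and no motif at *Hdac2*. None of the 4 motifs was thus found at all 4 genes, although *Hdac5* and *Hdac6* both held CCAAT boxes. These matches describe letters and not bound sites.

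At day 6, 3 of the 4 class IIa deacetylases and the class IIb member *Hdac6* were lower in the *siOct4*-labelled libraries than in *siNcor1*, whereas the class IIb member *Hdac10* was higher. The class I genes and *Hdac4* and *Hdac11* did not pass the test. That is 5 of 10 members called at an adjusted p under 0.05 (limma), 1 higher and 4 lower. Over all tested genes 30.7% were called, 12.1% as higher and 18.6% as lower. The median difference of the 10 members was −0.29 on the log2 scale and that of all tested genes −0.03. In RNA from a whole culture, fewer cells of a type and less RNA per cell cannot be told apart.

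*Hdac7* was at 6.10 and 6.16 log2-cpm in *siNcor1* at day 6 and at 5.64 and 5.18 in the *siOct4*-labelled libraries. At day 3 it had been at 6.43 and 6.11 in *siNcor1*, and at 6.34 and 6.59 in the *siOct4*-labelled libraries. The 2 *siOct4*-labelled libraries at day 6 were thus the lowest of all 8, and they did not overlap with *siNcor1*. The difference at day 6 was −0.72 (SE 0.17, adjusted p = 0.00853), or 1.64-fold lower.

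*Hdac9* was at 2.62 and 2.46 log2-cpm in *siNcor1* at day 6 and at 1.73 and 1.67 in the *siOct4*-labelled libraries. At day 3 its values were 2.16 and 1.68 in *siNcor1*, and 1.67 and 1.98 in the *siOct4*-labelled libraries. Here the *siNcor1* libraries of day 6 stood above all others, and the *siOct4*-labelled libraries at day 6 lay within the spread of day 3. The difference at day 6 was −0.84 (SE 0.25, adjusted p = 0.0260), or 1.80-fold lower, on 30 and 36 reads in the *siOct4*-labelled libraries.

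*Hdac5* showed the same order, with 5.89 and 5.77 log2-cpm in *siNcor1* at day 6 and 5.38 and 5.11 in the *siOct4*-labelled libraries. At day 3 it was at 5.70 and 5.26 in *siNcor1*, and at 5.42 and 5.40 in the *siOct4*-labelled libraries. The *siNcor1* libraries of day 6 were the highest of the 8, and 1 of the 2 *siOct4*-labelled libraries was the lowest. The difference at day 6 was −0.59 (SE 0.16, adjusted p = 0.0166), or 1.50-fold lower. *Hdac4*, the remaining class IIa gene, had 6.33 and 6.09 log2-cpm in *siNcor1* at day 6 and 6.31 and 5.98 in the *siOct4*-labelled libraries, which overlapped. The 95% interval of its difference ran from −0.37 to 0.24, so that a fall as large as the estimate for *Hdac5* lies outside it.

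Of class IIb, *Hdac6* was at 6.32 and 6.34 log2-cpm in *siNcor1* at day 6 and at 5.74 and 5.91 in the *siOct4*-labelled libraries. At day 3 it was at 6.14 and 6.20 in *siNcor1*, and at 5.75 and 5.95 in the *siOct4*-labelled libraries. All 4 *siOct4*-labelled libraries were below all 4 *siNcor1* libraries. The difference at day 6 was −0.51 (SE 0.12, adjusted p = 0.00979), or 1.42-fold lower. *Hdac10* was at 3.81 and 3.83 log2-cpm in *siNcor1* at day 6 and at 4.44 and 4.40 in the *siOct4*-labelled libraries. At day 3 its values were 4.03 and 4.07 in *siNcor1*, and 4.24 and 4.04 in the *siOct4*-labelled libraries. The lowest 2 of its 8 values were thus those of *siNcor1* at day 6, and the highest 2 those of the *siOct4*-labelled libraries at day 6. Its difference at day 6 was 0.60 (SE 0.15, adjusted p = 0.0101), or 1.52-fold higher.

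*Hdac11* had 2.92 and 2.76 log2-cpm in *siNcor1* at day 6 and 2.35 and 2.21 in the *siOct4*-labelled libraries, with no overlap. Its adjusted p was 0.103, and the interval of the difference ran from −1.09 to −0.03. In class I, *Hdac8* had 3.00 and 3.18 log2-cpm in *siNcor1* at day 6 and 3.38 and 3.28 in the *siOct4*-labelled libraries, with an interval of −0.15 to 0.63. *Hdac1* had 6.50 and 6.28 against 6.40 and 6.45 log2-cpm, and *Hdac2* had 6.46 and 6.58 against 6.54 and 7.02. The groups overlapped for *Hdac1* and *Hdac2*, and the intervals were −0.24 to 0.30 and −0.07 to 0.59. In all, the 2 groups of day 6 did not overlap for 7 of 10 members, beside 64.7% of all tested genes. *Hdac3* was at 5.90 and 5.74 log2-cpm in *siNcor1* at day 6 and at 5.26 and 5.73 in the *siOct4*-labelled libraries, and its adjusted p was 0.128.

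**Figure D2:**
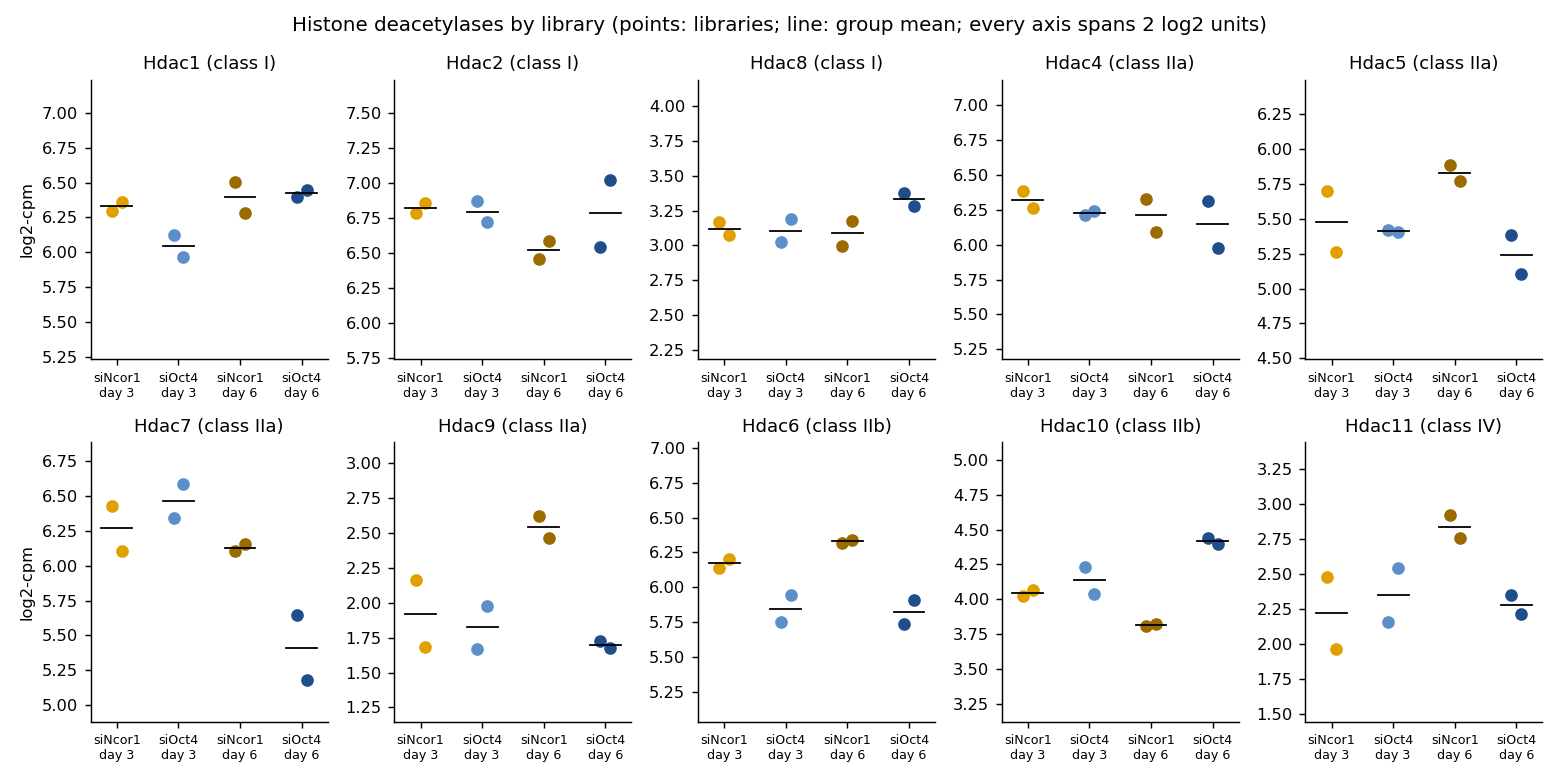
Log2-cpm of each deacetylase in the 8 libraries (points) with the group means (lines), in panels by class, each with a vertical axis of 2 log2 units and *siOct4* standing for the libraries labelled so. At day 6 the *siOct4*-labelled libraries lie below *siNcor1* for *Hdac5*, *Hdac7*, *Hdac9*, *Hdac6* and *Hdac11* and above it for *Hdac8* and *Hdac10*.

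The number of members called at day 6 changed with each library of that day. Without *siNcor1* day 6 replicate 1, 1 member was called (*Hdac7*, with 19.0% of all genes called), and without replicate 2 of that group 0 members (10.1%). Without *siOct4* day 6 replicate 2, *Hdac6*, *Hdac7* and *Hdac10* were called (33.7%), and without replicate 1 *Hdac2* joined the 5 (28.8%). No setting turned the direction of any of the 5. Of all genes called at day 6, 39.5% were higher in the *siOct4*-labelled libraries, and 27.5% were when library totals without normalization factors were used, or 28.8% with voom on the reads. The other scalings gave 42.6% (totals without *Gm26917*), 46.0% (median centring) and 46.8% (quantile normalization). The fibroblast, epithelial, pluripotent, muscle and neuronal marker sums did not overlap between these groups. At day 6 the neuronal sum was 97.5 to 109.0 CPM in *siNcor1* and 180.5 to 219.0 CPM in the *siOct4*-labelled libraries. The muscle sum was 29.1 to 31.8 CPM and 21.5 to 27.2 CPM in the respective groups. The part of all these markers in the differences of the deacetylases was not tested. *Slc48a1*, which overlaps *Hdac7*, was also lower at day 6 (difference −0.68, adjusted p = 0.00581), with 8.20 and 8.09 log2-cpm in *siNcor1* and 7.39 and 7.55 in the *siOct4*-labelled libraries.

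At day 3, 0 of 10 members were called between the knockdowns with limma, as were 1.07% of all tested genes, and voom on the reads also called 0. At an unadjusted p under 0.05 there were 2 members, *Hdac1* and *Hdac6*, and 1460 genes in all. *Hdac1* had 6.30 and 6.36 log2-cpm in *siNcor1* and 6.12 and 5.97 in the *siOct4*-labelled libraries, with an interval of the difference from −0.55 to −0.02 and an adjusted p of 0.430. The interval of *Hdac6* ran from −0.59 to −0.06 (adjusted p = 0.318). The groups did not overlap for *Hdac1*, *Hdac4* and *Hdac6*, or 3 of 10 members, beside 43.4% of all tested genes. *Hdac4* had 6.39 and 6.26 against 6.21 and 6.24 log2-cpm, a gap smaller than the spread within *siNcor1*. For the other members the day 3 values overlapped, with 6.79 and 6.86 against 6.87 and 6.72 log2-cpm for *Hdac2*, 3.17 and 3.08 against 3.02 and 3.19 for *Hdac8*, and 2.48 and 1.97 against 2.16 and 2.54 for *Hdac11*. The median difference of the members was −0.05 and that of all genes −0.02. Whether a member differed more at day 6 than at day 3 is tested further on.

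From day 3 to day 6 in *siNcor1*, 0 of 10 members passed the test, beside 34.8% of all tested genes, 13.8% higher and 20.9% lower at day 6. *Hdac5*, *Hdac9* and *Hdac11* had an unadjusted p under 0.05, as did 6242 genes in all. Both day 6 libraries were above both day 3 libraries for these 3 and *Hdac6*, and below them for *Hdac2* and *Hdac10*. How many of all genes lacked overlap between the days was not counted, so this is not read as a result about the members. *Hdac9* differed by 0.62 (SE 0.25, adjusted p = 0.0753), *Hdac11* by 0.62 (SE 0.24, adjusted p = 0.0687) and *Hdac5* by 0.35 (SE 0.16, adjusted p = 0.108). *Hdac2* differed by −0.30 (SE 0.15, adjusted p = 0.143). These 4 and *Hdac6* were called under some other settings: voom on the reads called *Hdac11*, and library totals without *Gm26917* called *Hdac9* and *Hdac11*. *Gm26917* is a non-coding gene that took 15.5% to 16.6% of the reads at day 3 and 20.3% to 29.1% at day 6. The intervals of *Hdac1* (−0.20 to 0.33), *Hdac4* (−0.42 to 0.19), *Hdac8* (−0.42 to 0.36) and *Hdac7* (−0.51 to 0.23) spanned 0. The median difference was 0.02 for the members and −0.07 for all genes.

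From day 3 to day 6 in the *siOct4*-labelled libraries, 2 of 10 members passed the test, beside 52.7% of all tested genes. *Hdac1* rose, as 22.2% of genes did, and *Hdac7* fell, as 30.5% did. *Hdac7* went from 6.34 and 6.59 to 5.64 and 5.18 log2-cpm, a difference of −1.05 (SE 0.17, adjusted p = 3.0e-04) or 2.07-fold lower, and this call held under every setting. *Hdac1* went from 6.12 and 5.97 to 6.40 and 6.45 log2-cpm, a difference of 0.38 (SE 0.12, adjusted p = 0.0213) or 1.30-fold higher. The *Hdac1* call was lost without *siOct4* day 3 replicate 2, the smallest library, and with no variance trend, the compared groups alone or voom. The days did not overlap for *Hdac1*, *Hdac8* and *Hdac10*, which were higher at day 6, nor for *Hdac5* and *Hdac7*, which were lower. *Hdac5* went from 5.42 and 5.40 to 5.38 and 5.11 log2-cpm (adjusted p = 0.391, limma). The share of all genes without overlap was not counted, so this listing is not read as a result about the members. *Hdac10* was higher at day 6, with a difference of 0.28 (SE 0.15, adjusted p = 0.127) that was called with library totals without *Gm26917*. That scaling moved the median of all genes by 0.13 on the log2 scale in this comparison and the share of higher genes among the called from 42.1% to 52.6%. The intervals of *Hdac2* (−0.34 to 0.32), *Hdac4* (−0.38 to 0.23), *Hdac6* (−0.29 to 0.24), *Hdac9* (−0.68 to 0.43) and *Hdac11* (−0.60 to 0.46) held 0. *Hdac3* fell in the *siOct4*-labelled libraries, by 0.65 (adjusted p = 0.00354). The median was −0.05 for the members and −0.08 for all genes. *Slc48a1* did not follow *Hdac7* between the days, with 7.44 and 7.28 log2-cpm at day 3 and 7.39 and 7.55 at day 6 in the *siOct4*-labelled libraries (difference 0.11, adjusted p = 0.560).

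**Figure D3:**
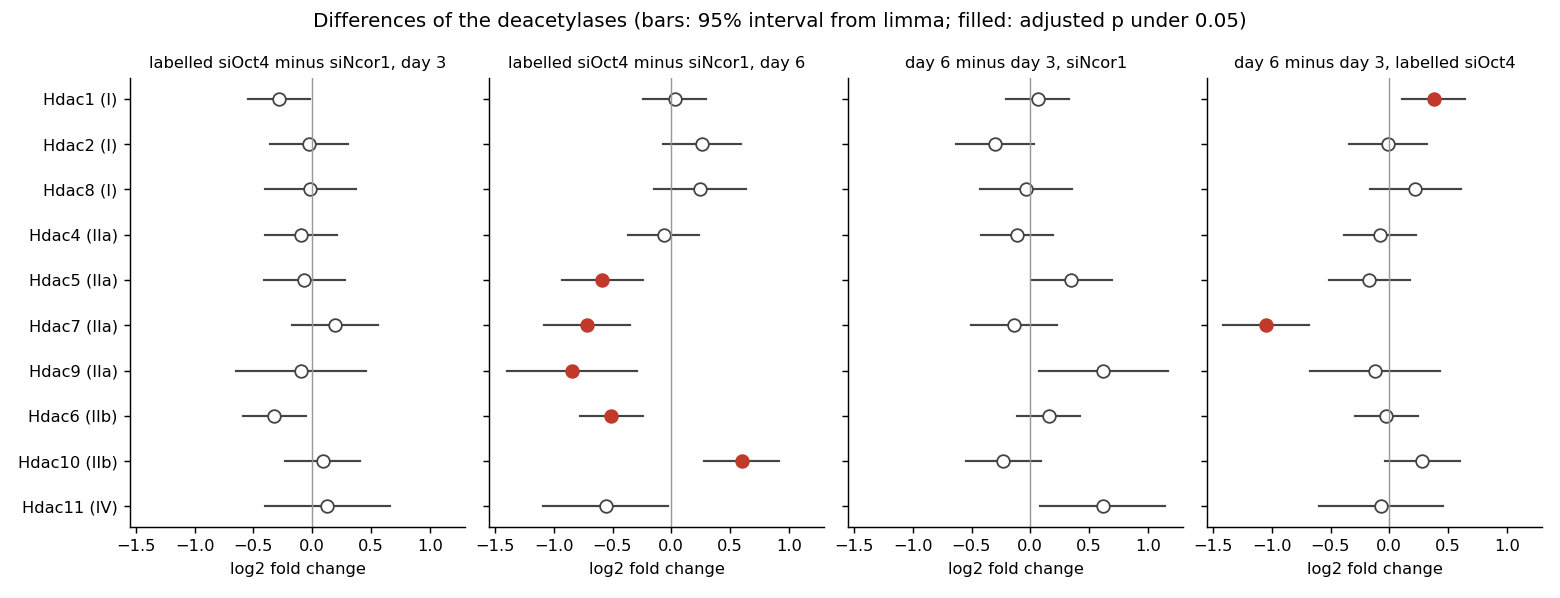
Log2 fold change of the 10 deacetylases in the 4 comparisons between groups, with 95% intervals from limma and filled red points for an adjusted p under 0.05. At day 6 *Hdac5*, *Hdac7*, *Hdac9* and *Hdac6* lie left of 0 and *Hdac10* right of 0, and from day 3 to day 6 *Hdac7* has the lowest point in the *siOct4*-labelled libraries.

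Whether the knockdowns differed by another amount at day 6 than at day 3 was tested as an interaction. *Hdac7* was the 1 member of 10 that passed, beside 20.7% of all tested genes, 7.77% with a more positive and 12.9% with a more negative difference at day 6. Its difference between the knockdowns was more negative at day 6 by 0.91, or a value of −0.91 (SE 0.24, adjusted p = 0.0205). The call was lost without *siNcor1* day 3 replicate 2 (7.28% of all genes called), *siOct4* day 3 replicate 2 (9.93%), *siNcor1* day 6 replicate 1 (12.7%) or replicate 2 (8.57%), and also in a fit with no trend of the variance. *Hdac5* joined it without *siNcor1* day 3 replicate 1, and *Hdac5* and *Hdac2* without *siOct4* day 6 replicate 1. Over all members the median was −0.08 and over all genes 0.01. *Hdac1* (−0.06 to 0.69), *Hdac9* (−1.53 to 0.03), *Hdac11* (−1.44 to 0.06) and *Hdac6* (−0.56 to 0.19) had intervals that held 0. A change between the days in how far the knockdowns differed was thus not shown for them. For *Hdac10* the interval ran from 0.06 to 0.96 with an adjusted p of 0.10 (limma). For *Hdac5* it ran from −1.01 to −0.03 with an adjusted p of 0.120 (limma). *Slc48a1* had an interaction of −0.91 (adjusted p = 0.0112), and it differed by 1.02 between the days in *siNcor1* (adjusted p = 4.4e-04), where the interval of *Hdac7* held 0.

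Summed per length, class I made up 51.5% to 64.5% of the RNA of the 10 deacetylases in the 8 libraries. Class IIa made up 21.3% and 15.4% in the *siOct4*-labelled libraries at day 6 and between 21.8% and 28.5% in the other 6 libraries. In CPM per kb the class IIa sum was 17.3 and 13.4 in those 2 libraries and 22.3 and 21.4 in *siNcor1* at day 6. These were the lowest 2 of the 8 sums. Class IIb stayed between 17.2% and 20.7% in all libraries, although at day 6 its 2 genes differed in opposite directions, and *Hdac6* was the larger part of it. Class IV, which is *Hdac11*, was between 1.09% and 2.16%.

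As a description over the 8 libraries, which fall into 4 groups and so are not 8 independent points, *Hdac9* was most like *Hdac11* (Pearson's r of log2-cpm 0.93) and *Hdac5* (0.92). *Hdac6* and *Hdac10* were the most opposed pair (−0.88), and *Hdac9* and *Hdac10* the next (−0.86). *Hdac7*, although lower at day 6 like *Hdac5* and *Hdac9*, had r of 0.50 and 0.34 with them. Among all other tested genes, the one most like *Hdac7* was *Ifi211* (0.99), with 150 genes above 0.95. *Hs1bp3* was most like *Hdac5* (0.99), *Natd1* most like *Hdac9* (0.98), *Nov* most like *Hdac6* (0.97), *Elovl4* most like *Hdac10* (0.97) and *Iglon5* most like *Hdac11* (0.97). The closest genes were *Tmem33* for *Hdac2* (0.98), *Zfp526* for *Hdac4* (0.96), *1700019D03Rik* for *Hdac1* (0.96) and *Aloxe3* for *Hdac8* (0.94). Each of these genes was chosen as the highest of all tested genes, and the values carry no test.

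The genes that work with the deacetylases were read from lists, and at day 3 no list had a gene called between the knockdowns, 0 of 81 tested genes in all. At day 6 the kinases that phosphorylate class IIa deacetylases were lower for 6 of 13 and higher for 0, beside 18.6% and 12.1% of all genes. The salt-inducible kinases *Sik3* (−0.72) and *Sik1* (−0.66) and the calmodulin-dependent kinase *Camk1d* (−0.61) differed most in the *siOct4*-labelled libraries. Of the 7 genes for 14-3-3 proteins, which hold phosphorylated class IIa deacetylases outside the nucleus, 2 were lower, *Sfn* (−1.07) and *Ywhag* (−0.36). Of 3 MEF2 factors tested, *Mef2a* was lower (−0.52). The class I complexes had few calls. They were 1 higher (*Sap30*, 0.47) and 2 lower (*Sin3b*, −0.63, and *Brms1l*, −0.56) of 13 for SIN3, 1 lower (*Mta3*, −0.52) of 11 for NuRD, and 0 of 3 for MiDAC. CoREST had 1 higher (*Rcor2*, 0.80) and 1 lower (*Phf21a*, −0.47) of 9. The histone acetyltransferases, which add the marks that deacetylases remove, had 5 lower and 1 higher of 12, among them *Kat2b* (−0.68), *Ncoa1* (−0.58) and *Kat8* (0.64). Of 7 sirtuins, the NAD-dependent class III deacetylases, *Sirt2* was lower (−0.47), and of 3 BET readers of acetyl-lysine none was called.

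**Figure D4:**
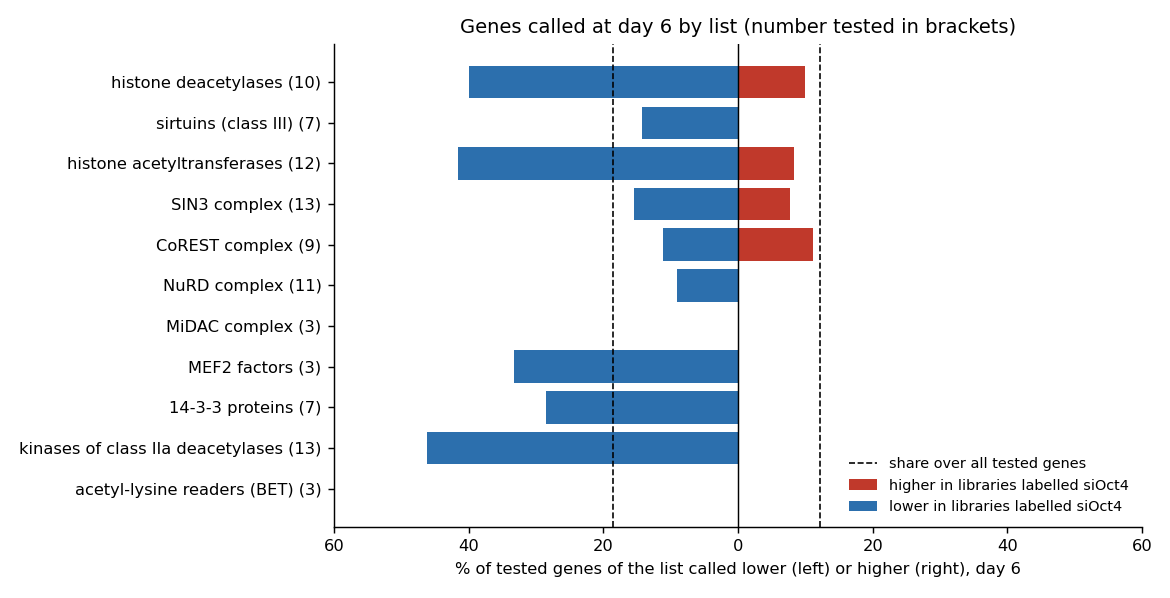
Share of the tested genes of each list called lower (bars to the left) or higher (bars to the right) in the *siOct4*-labelled libraries at day 6, with the number tested in brackets and dashed lines at the shares over all tested genes, 18.6% and 12.1%. The deacetylases have 4 of 10 lower, the kinases of class IIa deacetylases 6 of 13 and the acetyltransferases 5 of 12.

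Between the days, the same kinases were lower at day 6 for 5 of 13 and higher for 1 in *siNcor1*, and lower for 8 and higher for 0 in the *siOct4*-labelled libraries. Over all tested genes 20.9% were lower and 13.8% higher in *siNcor1*, and 30.5% lower and 22.2% higher in the *siOct4*-labelled libraries, and the counts that follow are to be read beside these shares. *Prkd1*, a protein kinase D gene, differed by −1.51 and by −1.58 in the respective groups. The 14-3-3 genes were lower for 5 of 7 in *siNcor1* and for 6 of 7 in the *siOct4*-labelled libraries, with *Sfn* higher in both (3.02 and 2.00). *Mef2c* was lower in both (−0.99 and −1.99), as the 1 MEF2 gene of 3 called in *siNcor1* and 1 of 2 called in the *siOct4*-labelled libraries. In the *siOct4*-labelled libraries, 8 of 12 acetyltransferases were lower and 2 higher at day 6, with *Crebbp* at −0.77 and *Hat1* at 1.29, whereas in *siNcor1* 3 were lower and 0 higher. NuRD had 4 of 11 lower in each group, with *Chd3* at −0.79 and −0.99. SIN3 had 2 higher and 2 lower of 13 in *siNcor1*, and 3 higher and 4 lower in the *siOct4*-labelled libraries. CoREST had 1 higher and 2 lower of 9, and 1 higher and 3 lower, with *Rcor2* at 0.83 and 2.16. The sirtuins had 2 higher and 1 lower of 7, and 3 higher and 1 lower, and the BET readers 1 and 2 lower of 3. In the interaction, 3 kinases (*Sik3*, *Camk2g* and *Sik1*) were called of 13, all with a more negative difference at day 6, as was *Hdac7*, beside 12.9% of all tested genes. The same interaction had 1 negative call each among sirtuins (*Sirt2*, −0.76), NuRD (*Mta3*, −0.68) and 14-3-3 genes (*Sfn*, −1.02). It had 1 positive call each among acetyltransferases (*Kat8*, 0.85) and CoREST (*Rcor2*, 1.32). SIN3 had 2 calls of opposite sign (*Sap30*, 0.74, and *Sin3b*, −0.73), and MiDAC, MEF2 and BET genes had 0.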

How the data were processed

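Total RNA depleted of ribosomal RNA was sequenced from MEFs in 8 libraries, 2 in each of 4 groups. The authors aligned the reads with STAR 2.5.2b to mm10 (GRCm38) and deposited log2-cpm values made with edgeR 3.20.9. The read counter and its strand setting are not given in the sources used here. The deposited log2 values rise from −2.87, and after a constant of 0.136 CPM was taken off, 100% of values were whole reads within a tolerance of 0.1 read, which gave the depth. A gene with 3 reads has 0.174 to 0.380 CPM, and read counts speak for counting error only. Within groups the libraries differed beyond sampling noise, and each was kept as a replicate. The chi-square statistic per degree of freedom was 18.7 in *siOct4* day 6 and 8.44 to 9.43 in the other groups. The fit shares 1 variance per gene over all groups, so it does not follow this difference. Of the 18990 genes, 18969 were matched to GENCODE M21 for coordinates and exon lengths.

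Groups came from the sample titles. limma 3.58.1 in R 4.3.3 (lmFit, then eBayes with a trend of the variance) was fitted on the deposited log2 values of the 13866 genes whose mean reached 1 CPM, the 4 groups together, with Benjamini-Hochberg adjustment over all tested genes at 0.05. A fold change is on this log2 scale with its constant, which understates changes of low genes. The planned design allowed for counts or log2 values, and the latter were found. The fit was also run on simulated reads with the same dispersion for all genes and groups, unlike these data, so that run checks the calculation alone. Intervals are 95% intervals from the same fit. Named were all 10 members, at most 3 called genes of each list with the largest change, *Ncor1*, *Pou5f1*, *Hdac3* and the gene most like each member, and, outside this rule and after their values were seen, *Slc48a1*, *Gm10093* and *Gm26917*. The members, the lists and the motifs were chosen with earlier results of these data known. *Mef2b* is not in the table used here, and of 4 BET genes 3 passed the filter.

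The alternatives were no variance trend, median centring, quantile normalization, library totals without normalization factors or without *Gm26917*, no filter, a filter at 10 CPM, pseudocounts of 0.1 and 1 CPM, the replicate number as a block, the compared groups alone, voom on the reads, the longest transcript as length, and each library left out. Figures were drawn with matplotlib 3.10.9.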

Additional observations from a re-analysis of the deposited data

Results flagged for a closer look

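One result differed between the days by a test of that difference itself. The gap between the *siOct4*-labelled libraries and *siNcor1* in *Hdac7* was more negative at day 6 than at day 3, with an interaction of −0.91 on the log2 scale (adjusted p = 0.0205, limma). Both *siOct4*-labelled libraries were lower at day 6 (5.64 and 5.18 log2-cpm) than at day 3 (6.34 and 6.59), while the *siNcor1* libraries were at 6.10 and 6.16 and at 6.43 and 6.11. The interaction ran from −1.15 to −0.68 over the alternatives, and its call was lost with no variance trend. It was also lost without *siNcor1* day 3 replicate 2, *siOct4* day 3 replicate 2, or either *siNcor1* library of day 6. *Slc48a1*, whose exons overlap those of *Hdac7* on the opposite strand, also had an interaction of −0.91. Whether reads were counted by strand is not given in the sources used here.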

How the results depend on the processing

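Of 50 pairs of a member and a comparison, 18 changed sign under some alternative, 11 of them under one other than leaving out a library. In the main fit none of these 18 differed by more than 0.14 on the log2 scale. The 8 called pairs kept their sign under every setting that gave them a value, which was 19 settings for *Hdac9* at day 6 and for the *Hdac7* interaction and 20 for the others. The number of members called at day 6 (5) was 4 with no variance trend and with the 10 CPM filter, which tests 7 members, and ranged from 0 to 6 over the libraries left out. At day 3 it was 0 under all settings. Between the days in *siNcor1* (0) it was 1 with no variance trend, 2 with quantile normalization, 2 without *Gm26917*, 3 with the compared groups alone and 1 with voom on the reads, and 0 to 2 over the libraries left out. In the *siOct4*-labelled libraries (2) it was 3 without *Gm26917*, 1 with no variance trend, with the compared groups alone and with voom, and 1 to 2 over the libraries left out. For the interaction (1) it was 0 with no variance trend and 0 to 3 over the libraries left out. The causes were not tested. Of the values under the alternatives for the members' pairs called under some setting and the list genes named at day 6, 570 stayed on the same side of the threshold, 66 lost and 18 gained a call, and 0 turned direction. Replicates share the numbers 1 and 2 in the labels, but deviations of same-numbered libraries correlated at −0.04 to 0.28, so the numbers were not taken as pairs. With the replicate number as a block, 5 members were called at day 6, 0 at day 3, 0 and 2 between the days in *siNcor1* and in the *siOct4*-labelled libraries, and 1 in the interaction. The block thus changed no count of members, and it called 33.9% of all genes at day 6 in place of 30.7%. A fit without a library leaves 1 in its group, which is then assumed to vary like the others. With 30 to 90 reads a library, *Hdac9* and *Hdac11* were the least precise.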
